A study of Rattus norvegicus with 120 samples.

Results

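Havcr1 encodes kidney injury molecule 1, a membrane protein of the proximal tubule, and its transcript was followed here in the kidneys of 120 rats. Every probe set that maps to Havcr1 and to no other gene was taken, which gave 1 probe set of 31099 on the array, for 1 of 14217 genes. The gene lies on chromosome 10 at bases 31619914 to 31652955 of the GRCr8 assembly, 33042 bases with 2 RefSeq transcripts. RefSeq also lists the related loci Havcr1l1 and Havcr1l2 on that chromosome and the pseudogene Havcr1-ps1, and whether the probe set also reads their transcripts was not tested. The rule used the gene's symbol and no measured value, but Havcr1 and the gene lists were chosen with earlier results of these data known.

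Male Sprague-Dawley rats, 5 to 7 weeks old before treatment, were injected intraperitoneally every day for 1, 7, 14 or 28 days and killed 24 hours after the last dose. Cyclosporine (CsA) was given at 25 or 2.5 mg/kg a day, tacrolimus (FK506) at 6 or 0.6 mg/kg a day and rapamycin (Rapa) at 10 or 1 mg/kg a day, and the vehicle rats received olive oil. The 7 treatments at 4 days make 28 groups of 3 to 6 rats, with 103 treated and 17 vehicle rats in all, 1 array per rat. The RNA came from the remaining portions of both kidneys, so cortex and medulla were measured together, and in such tissue fewer cells of a type and less RNA per cell cannot be told apart. The doses in mg/kg differ between the drugs, and no dose of 1 drug is matched to a dose of another.

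In the healthy kidney Havcr1 is barely expressed, and in injured proximal tubule cells it is strongly induced. Its protein, also called TIM-1, binds phosphatidylserine on dying cells and lets tubule cells engulf them, and its outer part is cut off and shed into the urine, where it is measured as a marker of tubular injury. CsA and FK506 bind different immunophilins and inhibit the phosphatase calcineurin and so keep the transcription factor NFAT out of the nucleus, whereas rapamycin binds the immunophilin of FK506 and inhibits the kinase mTOR.

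The 250 bases before the RefSeq start of Havcr1 are shown because calcineurin acts on transcription through NFAT. Whether NFAT takes part in the change of Havcr1 was not tested. They lie at chr10:31629528-31629777 of GRCr8 on the plus strand, inside the annotated interval of the gene. Capitals mark the letters GGAAA, the core of NFAT motifs, on either strand.
Havcr1: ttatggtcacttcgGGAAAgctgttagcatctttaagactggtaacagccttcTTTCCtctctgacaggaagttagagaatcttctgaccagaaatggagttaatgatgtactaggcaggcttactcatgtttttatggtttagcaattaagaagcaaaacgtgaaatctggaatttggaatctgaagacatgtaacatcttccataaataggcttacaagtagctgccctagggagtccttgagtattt
GGAAA was found at 2 places, 236 to 232 bases before the start on the plus strand and 197 to 193 bases before it on the minus strand. Of 33469 rat promoters of RefSeq, 56.9% hold GGAAA on 1 strand or the other. The AP-1 letters TGANTCA (6.34% of promoters), the STAT letters TTCNNNGAA (7.67%) and the TATA box letters TATAAA (12.9%) were not found in this window. A match of letters describes the sequence and does not show that a factor binds there.

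The arrays were those of kidney in every rat. Lrp2 and Slc34a1, genes of the proximal tubule, ran from 7059 to 10542 and from 10401 to 16441 in intensity, and Umod, of the thick ascending limb, from 9233 to 19283. Some subsets of lymphocytes also carry TIM-1. Summed over 10 T and B cell markers, the intensity ran from 306 to 594 in the rats of the 7 groups in which Havcr1 was called against vehicle, and from 247 to 662 in vehicle rats. The brightest of the 10 was the kinase Lck (35.3 to 201 over all rats), and the T cell chain Cd3e ran from 0.545 to 84.2, the B cell protein Ms4a1 from 1.02 to 55.6 and Cd8a from 0 in the array with zeros to 56.3. Of the 10, 3 passed the filter on dim genes (Lck, Cd4 and Cd3g), and Cd4, which rat macrophages also carry, was higher at days 7 and 14 of CsA 25 mg/kg (0.98 and 0.94). The part of lymphocytes in the level of Havcr1 was not tested. Replicate 3 of CsA 25 mg/kg at day 28 held all 5273 zeros of the table (17.0% of its values), and its correlation with the rest of its group was 0.880, against 0.945 or more for every other array. Havcr1 itself had an intensity of 2131.2 in that array. In 4 arrays of CsA-treated rats the liver gene Alb had a log2 level above 12, and none of these 4 is from a group in which Havcr1 was called against vehicle. Below that limit, Alb reached 11.1 in replicate 2 of FK506 6 mg/kg at day 14, a called group in which that rat had the highest Havcr1 (1177.4). It was 9.09 in replicate 2 of that dose at day 28 and 10.7 in vehicle replicate 3 of day 28. The listed liver genes were called in 1 comparison, with 6 of 7 higher at day 1 of CsA 25 mg/kg (0.619% of all genes). At day 28 of that dose 1 of 4 podocyte genes was lower (10.6% of all genes). Without the 4 arrays Havcr1 kept every call and every lack of one in 65 comparisons.

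In the 17 vehicle rats the intensity of Havcr1 ran from 21.1 to 99.8 with a median of 50.6. It did not pass the test between the days of vehicle treatment: relative to day 1, the log2 level differed by 0.65 at day 7, -0.08 at day 14 and 0.17 at day 28 (0 of 3 comparisons called, where 2.34%, 0.216% and 0.9% of genes were called higher). Levels are log2(intensity + 16) after quantile normalization, and a call is an adjusted p under 0.05 from limma with Benjamini-Hochberg adjustment over 10663 genes. Of the 103 treated rats, 40 exceeded every vehicle rat. They were 10 of 16 at CsA 25 mg/kg, 12 of 16 at FK506 6 mg/kg, 11 of 18 at FK506 0.6 mg/kg, 4 of 18 at Rapa 10 mg/kg, 3 of 18 at Rapa 1 mg/kg and 0 of 17 at CsA 2.5 mg/kg.

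**Figure D1:**
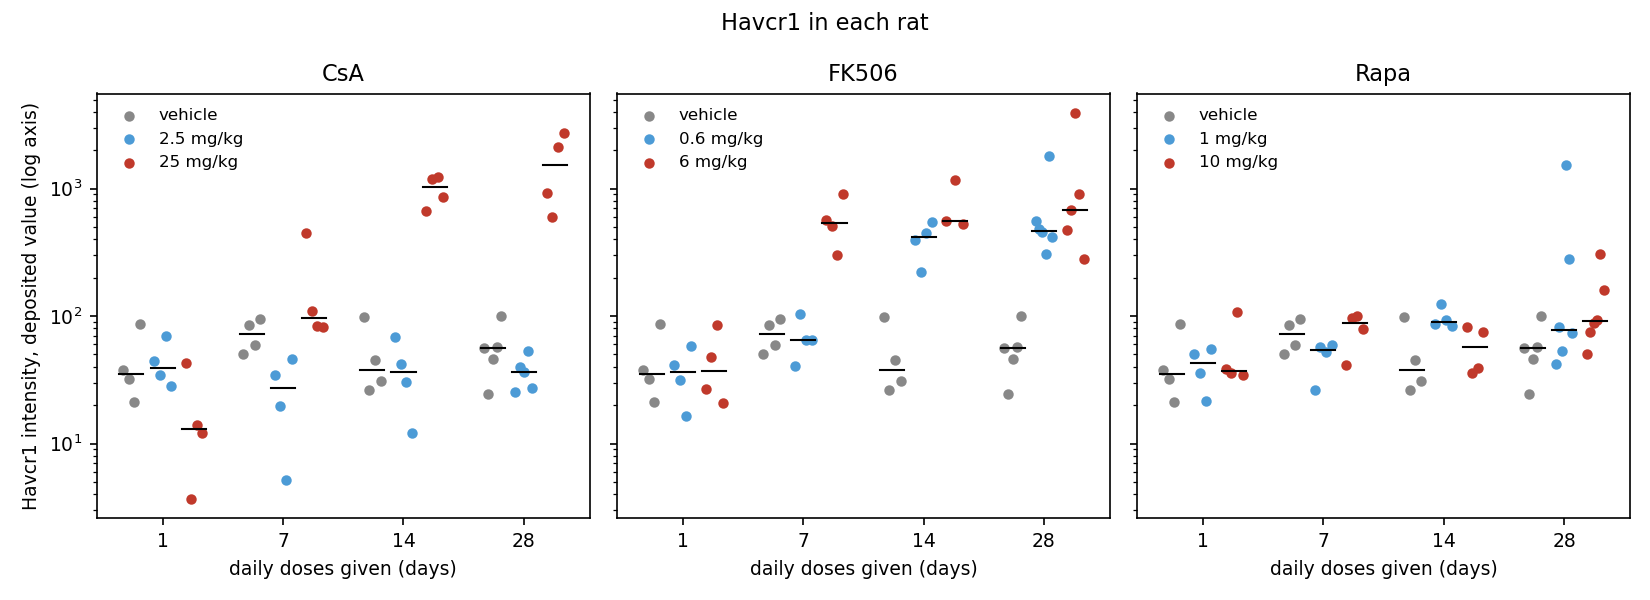
Intensity of Havcr1 in every rat (log axis) against the day of treatment, with 1 panel per drug; red points are the higher dose, blue points the lower dose, grey points the vehicle rats, and each black bar is a group's median. At CsA 25 mg/kg the points stand above vehicle from day 14 (667.4 to 1230.9), at FK506 6 mg/kg from day 7 (301.7 to 910.7) and at FK506 0.6 mg/kg from day 14 (220.4 to 550.1).

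At CsA 25 mg/kg Havcr1 was higher than in vehicle at days 14 and 28 and was not called at days 1 and 7. At day 1 the 4 rats had intensities of 42.6, 3.7, 13.9 and 12.2, against 38.0, 32.2, 21.1 and 86.0 in vehicle rats. Of the 4, 3 lay below every vehicle rat, and the group mean, 5.00 ± 0.66 (SD, n = 4), was the lowest of all 28, but the difference of -0.87 (SE 0.55) was not called (adjusted p = 0.886, limma; 0.0563% of genes called lower). Replicates 3 and 4 of these rats are among the arrays with high Alb, and without them the difference was -0.74. At day 7 the 4 CsA rats had 451.4, 109.1, 83.1 and 81.5, against 50.6, 85.8, 59.3 and 95.2 in vehicle rats. Replicate 1 stood alone and replicate 2 was slightly above the vehicle range, so the difference of 0.71 (95% interval -0.37 to 1.80) was not called (adjusted p = 0.566, limma). In that comparison 2.19% of genes were called higher.

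By day 14 of CsA 25 mg/kg all 4 rats were far above vehicle, at 667.4, 1198.5, 1230.9 and 854.0, against 98.7, 26.2, 44.8 and 30.8. These 4 rats lay close together, within a 1.84-fold range. The log2 difference was 4.14 (SE 0.55), a 17.7-fold rise on the scale of intensity + 16, with an adjusted p of 3.62e-08 (limma), and 4.73% of genes were called higher. At day 28 the CsA rats had 931.2, 597.6, 2131.2 and 2747.9, against 56.1, 24.5, 46.1, 57.0 and 99.8 in vehicle rats. The groups did not overlap, and the level was 10.46 ± 1.08 (SD, n = 4), the highest of the 28 groups. The rise was 4.42 (SE 0.52) or 21.5-fold (adjusted p = 2.34e-10, limma), where 10.5% of genes were called higher. Without replicate 3, the array with zeros, it was 4.20 (adjusted p = 2.07e-08, limma).

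With FK506 at 6 mg/kg Havcr1 was higher at day 7, the earliest day called among the 6 treatments. At day 1 the 4 rats had 26.6, 47.9, 84.4 and 20.9, within or just below the vehicle range (difference -0.03, adjusted p = 0.999, limma; 0.00938% of genes called higher). At day 7 they had 565.8, 507.0, 301.7 and 910.7, against 50.6, 85.8, 59.3 and 95.2 in vehicle rats. Every FK506 rat was above every vehicle rat, and the rise was 2.57 (SE 0.55) or 5.96-fold (adjusted p = 0.00225, limma), where 1.77% of genes were called higher.

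At the higher dose of FK506 Havcr1 was also higher at days 14 and 28. At day 14 the 3 rats had 554.0, 1177.4 and 531.6, against 98.7, 26.2, 44.8 and 30.8 in vehicle rats, a rise of 3.71 (SE 0.59) or 13.1-fold (adjusted p = 2.66e-05, limma; 1.24% of genes called higher). At day 28 the 5 rats had 471.0, 676.8, 3933.0, 914.7 and 279.0, against 56.1, 24.5, 46.1, 57.0 and 99.8 in vehicle rats. Replicate 3 held the highest intensity of the 120 arrays, and the other 4 rats were also above every vehicle rat. The rise was 3.64 (SE 0.49) or 12.5-fold (adjusted p = 3.36e-08, limma), where 8.63% of genes were called higher.

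At the lower dose of FK506, 0.6 mg/kg, Havcr1 was higher at days 14 and 28. At day 1 the 4 rats had 41.5, 31.5, 16.3 and 58.0 (difference -0.19, 0% of genes called higher). At day 7 the rats had 40.8, 104.3, 64.4 and 64.5, mixed among the vehicle rats (difference -0.16, adjusted p = 0.939, limma; 0.9% of genes called higher). At day 14 they had 391.9, 220.4, 448.9 and 550.1, against 98.7, 26.2, 44.8 and 30.8 in vehicle rats. The groups did not overlap, and the rise of 2.87 (SE 0.55) or 7.29-fold was called (adjusted p = 0.00262, limma) in a comparison that called 0.375% of genes higher. At day 28 the 6 rats ran from 306.9 through a median of 468.75 to 1816.7, against 24.5, 56.1 and 99.8 in the 5 vehicle rats. Again none overlapped, and the rise was 3.12 (SE 0.47) or 8.70-fold (adjusted p = 3.15e-06, limma; 2.57% of genes called higher).

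The folds depend on the offset, since the vehicle rats are dim. With an offset of 64 in place of 16 the rise was 9.73-fold at day 14 and 12.7-fold at day 28 of CsA 25 mg/kg, and with an offset of 1 it was 24.9-fold and 28.3-fold. For FK506 6 mg/kg an offset of 64 gave 4.25-fold, 7.35-fold and 7.65-fold at days 7, 14 and 28, and an offset of 1 gave 6.96-fold, 18.4-fold and 16.3-fold. For FK506 0.6 mg/kg an offset of 64 gave 4.29-fold and 5.40-fold at days 14 and 28, and an offset of 1 gave 10.03-fold and 11.3-fold. The ratio of mean intensities, with no offset, was 22.1 at day 28 of FK506 6 mg/kg, where 1 rat was far above the others. All 7 rises were called at each offset.

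In each of the 7 groups called against vehicle, Havcr1 had the largest rise of the 10663 genes tested. No rat of these groups overlapped the vehicle rats of its day. The exact two-sided permutation p was 0.0286 at days 7 and 14, the smallest these group sizes allow, and at day 28 it was 0.00794 at both higher calcineurin inhibitor doses and 0.00216 at the lower FK506 dose.

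At CsA 2.5 mg/kg Havcr1 was not called at any day. At day 7 the 4 rats had 34.5, 19.7, 5.2 and 46.2, against 50.6, 85.8, 59.3 and 95.2 in vehicle rats. All 4 lay below every vehicle rat (exact permutation p = 0.0286, two-sided), but the difference of -1.15 (95% interval -2.24 to -0.07) was not called (adjusted p = 0.596, limma; 0% of genes called higher and 0% lower). At days 1 and 14 the rats ran from 28.2 to 69.6 and from 12.1 to 68.8, and the differences were -0.00 and -0.20, where 0% and 0.0469% of genes were called higher. At day 28 the rats had 25.4, 39.9, 36.3, 52.9 and 27.1, inside the vehicle range, and the difference of -0.33 had an interval from -1.30 to 0.64.

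Single rats given rapamycin had high Havcr1 at day 28, and no rapamycin group was called. At 10 mg/kg the 6 rats of day 28 ran from 50.8 through a median of 90.65 to 304.9, against 24.5, 56.1 and 99.8 in vehicle rats, and 2 of the 6 exceeded every vehicle rat of that day. The difference was 0.91 (95% interval -0.02 to 1.84, adjusted p = 0.191, limma) in a comparison that called 7.62% of genes higher. At 1 mg/kg the 6 rats had 41.7, 81.9, 52.8, 1540.2, 282.7 and 73.3. Again 2 of 6 exceeded the vehicle rats, and 1 of these was as high as the calcineurin inhibitor groups. The difference was 1.30 (95% interval 0.37 to 2.23, adjusted p = 0.0609, limma; 4.67% of genes called higher), and without replicate 4 it was 0.63 (adjusted p = 0.438). The interval uses a spread pooled over all 28 groups, whereas the SD of this group alone was 1.82. Its exact two-sided permutation p was 0.160. The difference was called without vehicle replicate 5, the highest vehicle rat of that day (1.50, adjusted p = 0.0433), and without rapamycin replicate 1 (1.60, 0.0194), 3 (1.53, 0.0320) or 6 (1.49, 0.0357). At day 14 of 1 mg/kg the 4 rats had 87.4, 124.7, 93.5 and 84.2, a tight group whose difference from vehicle, 1.01, was not called (adjusted p = 0.254, limma; 4.08% of genes called higher). At 1 mg/kg the rats ran from 21.7 to 55.4 at day 1 and from 26.4 to 59.8 at day 7, and at 10 mg/kg from 34.6 to 107.2 at day 1, 41.5 to 100.9 at day 7 and 35.6 to 82.7 at day 14. None of these groups was called against vehicle: 1 mg/kg gave -0.01 at day 1 and -0.51 at day 7, and 10 mg/kg gave 0.22 at day 1, -0.06 at day 7 and 0.35 at day 14. These comparisons called 1.97%, 1.61%, 1.69%, 3.03% and 5.20% of genes higher, in the same order.

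**Figure D2:**
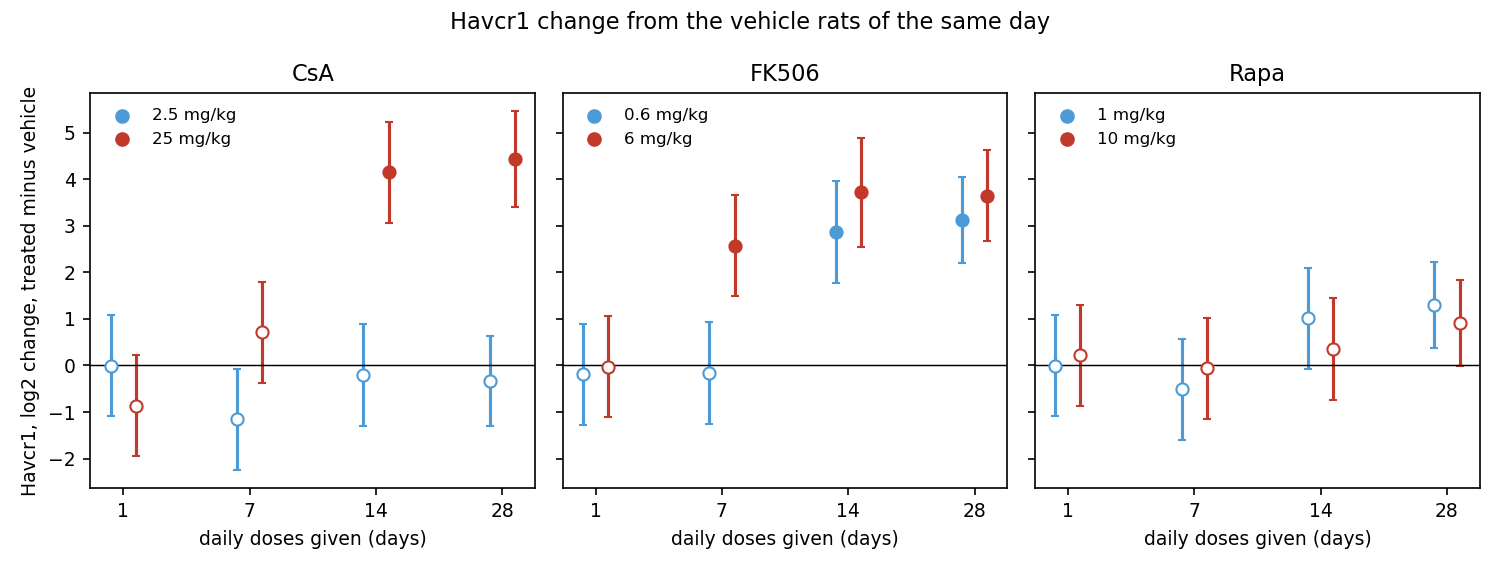
Difference of the mean log2 level of Havcr1 from the vehicle rats of the same day, with its 95% interval, by drug and day; red is the higher dose and blue the lower dose, and filled points are called. The 7 filled points lie between 2.57 and 4.42, and the 17 open points between -1.15 and 1.30.

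The dose comparisons asked whether the higher dose gave more transcript than the lower dose of the same drug, and 4 of 12 were called, all higher. For CsA the difference between 25 and 2.5 mg/kg was 1.87 at day 7 (95% interval 0.78 to 2.95, adjusted p = 0.0425, limma; 1.45% of genes called higher). It was 4.35 or 20.4-fold at day 14 (adjusted p = 2.10e-08; 3.85% called higher) and 4.75 or 27.0-fold at day 28 (adjusted p = 1.60e-11; 8.82% called higher). With an offset of 64 these 3 differences were 2.26-fold and not called, 10.5-fold and 14.6-fold, and with an offset of 1 they were 5.61-fold, 31.1-fold and 37.8-fold. At day 7 neither dose was called against vehicle: the mean was 0.71 above it at 25 mg/kg, and the difference was -1.15 at 2.5 mg/kg. The call at day 7 was lost without replicate 1 or 2 at 25 mg/kg or replicate 1, 2 or 3 at 2.5 mg/kg, and the difference ran from 1.33 to 2.11 as each of the 8 rats was left out. The Gapdh ratio, the log2 signal of the end over the start of that transcript, differed between these groups. It averaged 0.43 at 25 mg/kg, 0.79 at 2.5 mg/kg and 0.73 in vehicle rats of day 7. With this ratio as covariate the call was also lost.

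For FK506 the doses differed at day 7 and not, by the test, afterwards. At day 7 the 4 rats at 6 mg/kg (301.7 to 910.7) were all above the 4 at 0.6 mg/kg (40.8 to 104.3), a difference of 2.73 or 6.65-fold (95% interval 1.65 to 3.82, adjusted p = 0.0285, limma). Havcr1 was the only gene of 10663 called higher there (0.00938% of genes). That call was lost without replicate 1, 2 or 4 at 6 mg/kg or replicate 1, 3 or 4 at 0.6 mg/kg, and the difference ran from 2.48 to 2.99 as each of the 8 rats was left out. At day 14 the doses differed by 0.85 (95% interval -0.32 to 2.02, adjusted p = 0.707, limma; 0.0281% called higher), and at day 28 by 0.52 (-0.41 to 1.45, adjusted p = 0.686, limma; 0.581% called higher). The direction at day 28 turned without replicate 3 of FK506 6 mg/kg (-0.06) and with the hybridization controls as covariate (-0.08). The intervals leave room for a higher level at 6 mg/kg of up to 2.02 on the log2 scale at day 14 and 1.45 at day 28.

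For rapamycin the doses did not differ by the test at any day. The nearest was day 14, when the 4 rats at 10 mg/kg had 82.7, 35.6, 39.4 and 74.3, against 87.4, 124.7, 93.5 and 84.2 at 1 mg/kg. The 4 values at the higher dose were all below those at the lower dose (exact permutation p = 0.0286, two-sided), and the difference of -0.66 was not called (adjusted p = 0.987, limma; 0% of genes called lower).

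Between the drugs at their higher doses, which are not matched, 5 of 12 comparisons were called, all of a calcineurin inhibitor over rapamycin. FK506 6 mg/kg exceeded Rapa 10 mg/kg by 2.63 at day 7 (adjusted p = 0.000624, limma; 4.08% of genes called higher), by 3.36 at day 14 (adjusted p = 2.25e-05; 4.83%) and by 2.73 at day 28 (adjusted p = 1.32e-05; 6.68%). At day 28 these groups overlapped, since the lowest FK506 rat (279.0) was below the highest rapamycin rat (304.9). Over 12 other settings of the processing that difference ran from 2.00 to 2.91 and was called in each. CsA 25 mg/kg exceeded Rapa 10 mg/kg by 3.79 at day 14 (adjusted p = 1.20e-07, limma; 7.92%) and by 3.51 at day 28 (adjusted p = 8.45e-08; 10.4%), and at day 7 the difference of 0.77 was not called. With an offset of 64 the differences from rapamycin at day 14 were 2.70 for FK506 and 3.10 for CsA, and both were called.

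CsA 25 mg/kg and FK506 6 mg/kg were not told apart at any day by the test fitted on all arrays. At day 7 the CsA rats (451.4, 109.1, 83.1 and 81.5) were mostly below the FK506 rats (565.8, 507.0, 301.7 and 910.7). The difference was -1.86 (95% interval -2.95 to -0.77), with an adjusted p of 0.0800 (limma; 0.169% of genes called lower). The lack of a call depended on CsA replicate 1 and on the arrays fitted. Without that rat the difference was -2.40 (adjusted p = 0.0167, limma). With the day 7 arrays alone it was -1.86 and was called (adjusted p = 0.0261, limma). At day 14 the difference was 0.43 (95% interval -0.74 to 1.60) and at day 28 it was 0.78 (-0.25 to 1.81). The mean log2 level of the hybridization controls at day 28 was 8.86 in the FK506 group and 10.7 in the CsA group. Over 12 other settings of the processing the difference at day 28 ran from 0.55 to 1.62 and was never called.

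The onset was tested as the change of the difference from vehicle between days. For CsA 25 mg/kg it grew by 3.43 between days 7 and 14 (95% interval 1.89 to 4.97, adjusted p = 0.00917, limma; 1.02% of genes called higher) and by 5.29 between days 1 and 28 (adjusted p = 9.16e-07; 2.83%). Between days 1 and 7 the change of 1.58 was not called (adjusted p = 0.448), and between days 14 and 28 it was 0.28 (95% interval -1.22 to 1.78). For FK506 6 mg/kg the largest step lay between days 1 and 7, at 2.60 (95% interval 1.06 to 4.14), and was not called (adjusted p = 0.133, limma). The change between days 1 and 28, 3.67, was called (adjusted p = 0.00148; 1.86%). Between days 1 and 28, offsets of 64 and 1 gave 4.07 and 6.34 for CsA 25 mg/kg and 2.95 and 4.07 for FK506 6 mg/kg, and between days 7 and 14 an offset of 64 gave 2.73 for CsA 25 mg/kg.

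At FK506 0.6 mg/kg, a comparison added after the values were seen, the difference grew by 3.31 between days 1 and 28 (adjusted p = 0.0199, limma; 0.0844% of genes called higher). That call was lost without vehicle replicate 4 of day 1, vehicle replicate 2 of day 28, FK506 replicate 2 or 3 of day 1, or FK506 replicate 5 of day 28, at 2.98 to 3.28, as each of the 19 rats was left out. An offset of 64 gave 2.54. Its change between days 7 and 14 was 3.02 (adjusted p = 0.0760, limma), in a comparison that called 0% of genes. At Rapa 10 mg/kg no change between days was called, and the change between days 1 and 28 was 0.69 (95% interval -0.74 to 2.12).

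Ranked by mean level, the 7 called groups came first: CsA 25 mg/kg at days 28 and 14 (10.46 and 9.93), FK506 6 mg/kg at days 28 and 14 (9.68 and 9.50), FK506 0.6 mg/kg at day 28 (9.15), FK506 6 mg/kg at day 7 (9.09) and FK506 0.6 mg/kg at day 14 (8.65). Rapa 1 mg/kg at day 28 (7.33), CsA 25 mg/kg at day 7 (7.23), Rapa 10 mg/kg at day 28 (6.94) and Rapa 1 mg/kg at day 14 (6.80) came next, ahead of every vehicle group. No pair of neighbours in the order of 28 differed by more than the larger of their SDs. The largest step, 1.32, lay between FK506 0.6 mg/kg at day 14 and Rapa 1 mg/kg at day 28, whose SD was 1.82.

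Rats that had the same treatment differed widely in Havcr1. Its pooled SD within groups was 0.786 on the log2 scale, against a median of 0.196 over all genes, and 52 genes had a larger one. Among 2140 genes at a similar mean level, 99.5% had a smaller SD. It was 0.566 among vehicle rats, 1.04 at CsA 25 and FK506 6 mg/kg at days 14 and 28, and 0.769 in the other treated groups. The highest rat exceeded the lowest 36.9-fold in intensity in Rapa 1 mg/kg at day 28 and 14.1-fold in FK506 6 mg/kg at day 28, but 1.48-fold in Rapa 1 mg/kg at day 14.

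In 3 groups with a rat far above the others in Havcr1, that rat was also high in other genes. In Rapa 1 mg/kg at day 28, replicate 4 had a Havcr1 level of 10.67, against 5.86 to 8.17 in the other 5 rats. Its level of Lcn2, a lipocalin that binds bacterial iron carriers, was 11.15, against 7.42 to 8.23, and its level of Spp1, the secreted matrix protein osteopontin, was 13.94, against 11.63 to 12.81. In FK506 6 mg/kg at day 28, replicate 3 had a Havcr1 level of 11.99, against 8.18 to 9.86 in the other 4 rats, with Lcn2 at 10.60 against 7.82 to 8.85. In CsA 25 mg/kg at day 7, replicate 1 had a Havcr1 level of 8.85, against 6.51 to 6.93 in the other 3 rats, with clusterin (Clu), a secreted chaperone, at 11.34 against 9.94 to 10.24 and Timp1, an inhibitor of metalloproteinases, at 8.41 against 7.45 to 7.69. In FK506 0.6 mg/kg at day 28, replicate 5 had a Havcr1 level of 10.81, against 8.38 to 9.15 in its group. Its Clu (12.14 against 10.89 to 11.83) and Spp1 (13.36 against 12.9 to 13.24) were above the other rats. Its Lcn2 (9.11 against 8.03 to 9.4) and Timp1 (8.56 against 7.86 to 8.73) were not. These genes are also among those most correlated with Havcr1 within groups, a ranking to which these rats contributed. The mean log2 level of the hybridization controls was 7.84 in the first of these arrays and 9.05 in the second, against 7.91 to 10.6 and 7.16 to 10.2 in the other rats of their groups. Replicate 2 of Rapa 1 mg/kg at day 28, with controls at 7.91, had a Havcr1 level of 6.70. The part of the hybridization in these high values was not tested.

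To find genes that follow Havcr1 from rat to rat, each gene's level was centred on its group mean and set against that of Havcr1 over 120 rats. The slope on Havcr1 was called for 105 positive genes (0.985% of 10662) and 73 negative genes (0.685%). The counts fell without the 2 rats farthest from their group means, Rapa 1 mg/kg day 28 replicate 4 and FK506 6 mg/kg day 28 replicate 3, which lay 3.33 and 2.32 above them. Without both, 16 positive and 0 negative genes were called.

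S100a10 and Anxa2, the 2 partners of a complex of annexin A2 with an S100 protein at the inner face of the plasma membrane, followed Havcr1 most closely. Pearson's r was 0.70 and Spearman's rho 0.59 for S100a10 (adjusted p = 4.70e-11, limma), and 0.68 and 0.56 for Anxa2. Without the 2 farthest rats r was 0.58 and 0.52, and both genes were still called. In the 24 rats given CsA 25 or FK506 6 mg/kg for 7 to 28 days r was 0.89 for S100a10 and 0.83 for Anxa2, and in the other 96 rats 0.62 and 0.61; each of these sets holds 1 of the 2 farthest rats.

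Of the 12 genes with the highest r, 4 are proteins measured in urine in kidney toxicity studies: Lcn2 (r = 0.61), Timp1 (0.60), Clu (0.59) and Spp1 (0.56). The others were the secreted protease Adamts1 (0.61), the annexin Anxa7 (0.61), the lysosomal protease Ctsd (0.60), the phosphate transporter Slc34a2 (0.57), the S100 protein S100a11 (0.57) and the mitochondrial carrier Slc25a24 (0.56). Their rho ran from 0.37 for Slc34a2 to 0.54 for Timp1. Each of the 12 r had a permutation p of 1e-05, the smallest that 100000 resamples can give, except Slc34a2 (2e-05). The 12 genes were picked by r on these same rats, and the permutation p takes no account of that choice. Without the 2 farthest rats r was 0.39 to 0.58 over the 12 genes, and 10 stayed called, the exceptions being Ctsd (adjusted p = 0.0701, limma) and Slc34a2 (adjusted p = 0.0652).

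**Figure D3:**
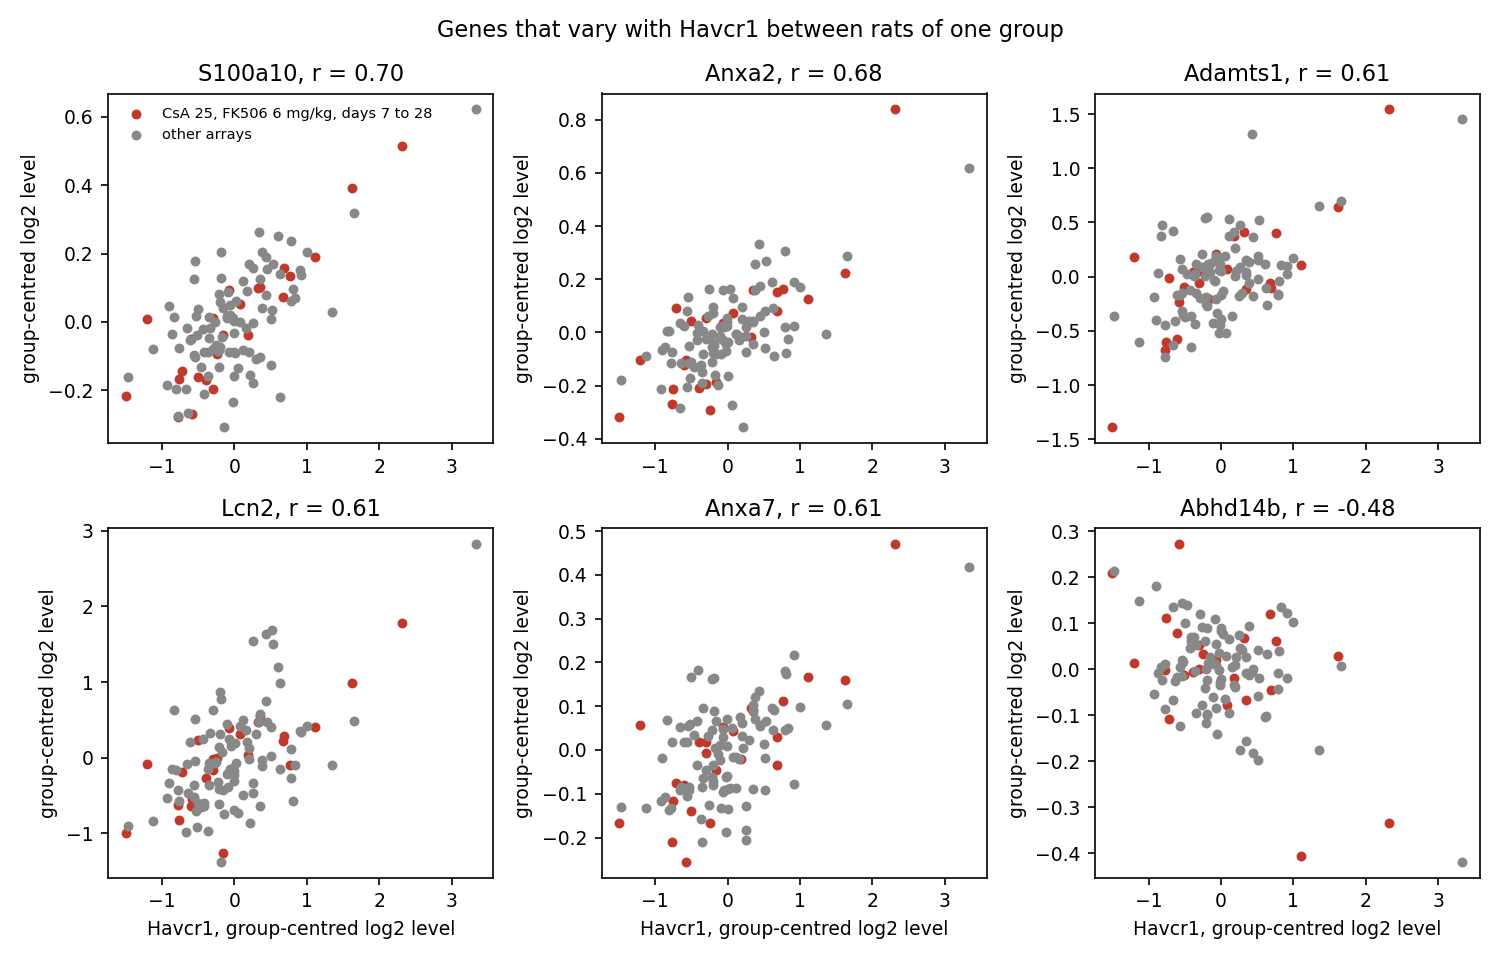
Level of 6 genes against that of Havcr1, both on the log2 scale and centred on the mean of each rat's group, 1 point per rat; red points are CsA 25 and FK506 6 mg/kg at days 7 to 28, and grey points are all other rats. S100a10, Anxa2, Adamts1, Lcn2 and Anxa7 rise with Havcr1 (r from 0.61 to 0.70) and Abhd14b falls (r = -0.48); the 2 points farthest right lie 3.33 and 2.32 above their group means.

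The 6 genes with the lowest r were Abhd14b (-0.48), Nqo2 (-0.46), C8h11orf54 (-0.46), Sdc2 (-0.45), Iqsec1 (-0.44) and Ttc36 (-0.44). Nqo2 is a quinone reductase and Sdc2 a syndecan, a proteoglycan of the cell surface. Their calls were lost without the 2 farthest rats: r was then -0.35 to -0.21 and none of the 6 was called. Over all rats Spearman's rho ran from -0.41 for Sdc2 to -0.22 for Abhd14b. Its permutation p within groups ran from 0.00014 for Nqo2 to 0.039 for Abhd14b, and takes no account of how these 6 genes were chosen.

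In 5 groups the rat with the highest Havcr1 also had the highest level of all 12 genes: CsA 25 mg/kg at day 7, FK506 6 mg/kg at day 28, FK506 0.6 mg/kg at day 14, Rapa 1 mg/kg at day 28 and Rapa 10 mg/kg at day 7. In Rapa 10 mg/kg at day 28 the top rat was highest in 1 of the 12. These rats took part in the choice of the 12 genes, so the counts only describe them. Of the 12 genes, 10 have a RefSeq promoter here, and GGAAA was found in 4 of the 10, against 56.9% of all promoters.

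Over the 28 group means, the genes most like Havcr1 were Slc34a2 (r = 0.94), Spp1 (0.92), the homeobox repressor Tgif1 (0.92), the transcription factor Myc (0.92), the adhesion receptor Pvr (0.92), Adamts1 (0.91), the zinc finger factor Klf6 (0.90) and Clu (0.90). Each point is the mean level of a group, the vehicle groups included, and the values describe likeness only. Of these 8, 4 were also among the 12 that followed Havcr1 within groups: Slc34a2, Spp1, Adamts1 and Clu. Myc was like Havcr1 between groups but less so between rats of a group (r = 0.34).

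Genes of other proteins measured in urine were called in some, not all, of the groups in which Havcr1 was. None of the 10 urinary markers tested was called at day 7 of FK506 6 mg/kg, when Havcr1 was already 5.96-fold higher: Clu was at 0.92 (SE 0.30, adjusted p = 0.0694, limma), Spp1 at 0.65, Lcn2 at 0.35 and Timp1 at 0.04, and the median of the 10 was 0.08, against -0.01 over all genes. That comparison called 1.77% of all genes higher and 1.40% lower. At day 14 of that dose 2 of 10 were higher (Clu by 1.50 and Spp1 by 1.55; 1.24% of all genes), and at day 28 there were 5 higher and 1 lower (8.63% and 7.35% of all genes). At FK506 0.6 mg/kg none of 10 was called at day 14, when Havcr1 was (0.375% of all genes called higher). At day 28 of that dose there were 4 higher and 1 lower (2.57% and 1.77% of all genes). At CsA 25 mg/kg 0 of 10 were called at day 7 (2.19% of all genes called higher and 1.82% lower), and 4 were higher at day 14 (4.73% of all genes). At day 28 of that dose 5 were higher and 1 lower, where 10.5% and 10.6% of all genes were called, and the median was 0.43, against 0.01 over all genes. That Havcr1 differs in timing from these genes was not itself tested. Where so small a share of all genes was called, a count of 0 of 10 does not set this list apart.

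In the groups in which Havcr1 was called against vehicle, the rises of the urinary markers stayed below that of Havcr1 in log2 difference. At day 28 of CsA 25 mg/kg Clu rose by 2.29, to 12.42 ± 0.06 in CsA rats (SD, n = 4) against 10.13 ± 0.37 in vehicle rats (SD, n = 5). Spp1 rose by 2.21, Lcn2 by 2.21 and Timp1 by 1.68, where Havcr1 rose by 4.42. At day 28 of FK506 6 mg/kg Clu rose by 2.01, Spp1 by 1.89, Lcn2 by 1.83 and Timp1 by 1.40, where Havcr1 rose by 3.64. The lower gene at day 28 was Tff3, a trefoil peptide, at -1.16 with CsA 25, -0.84 with FK506 6 and -0.55 with FK506 0.6 mg/kg. It was named after its values were seen.

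**Figure D4:**
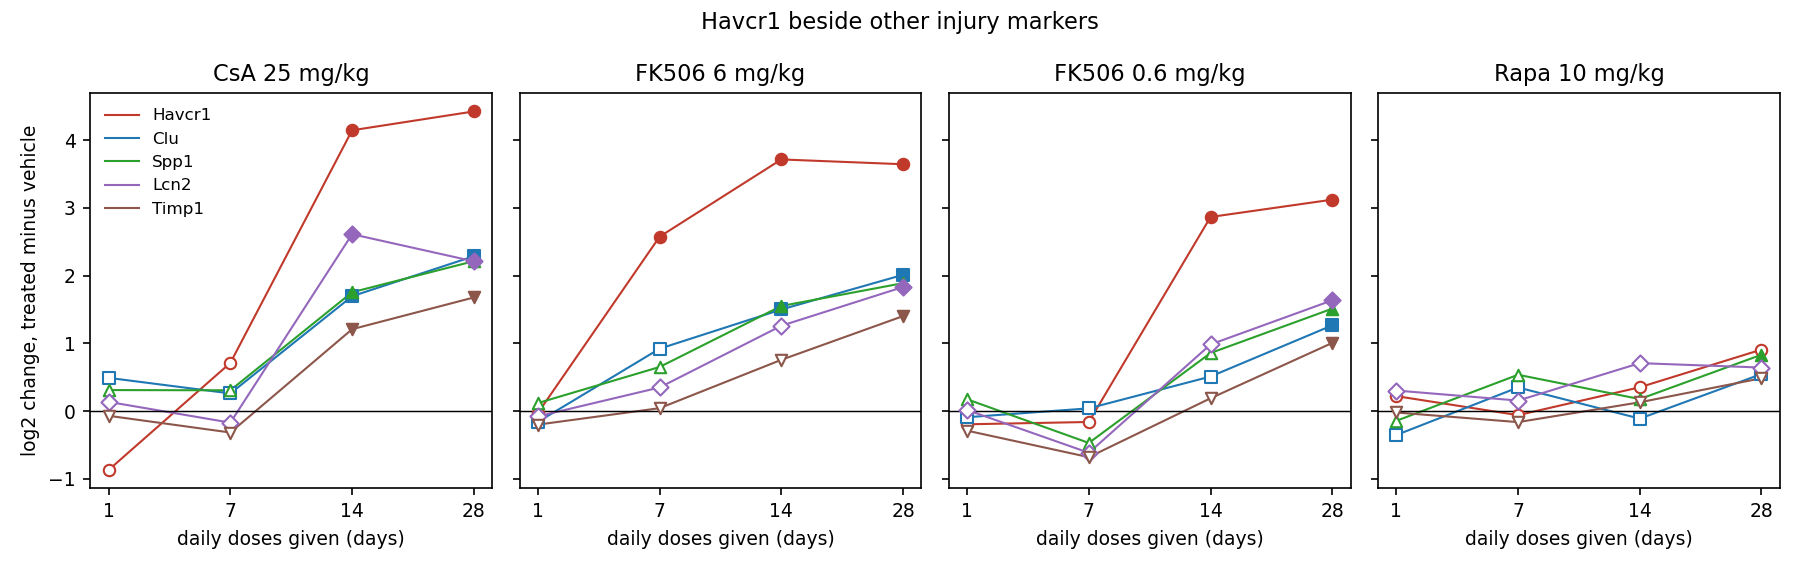
Log2 difference from vehicle by day for Havcr1 and 4 urinary markers (Clu, Spp1, Lcn2 and Timp1) in 4 panels, CsA 25, FK506 6, FK506 0.6 and Rapa 10 mg/kg; filled points are called. Havcr1 is the only filled marker at day 7 of FK506 6 mg/kg (2.57) and at day 14 of FK506 0.6 mg/kg (2.87).

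Genes that injured tubule cells are known to raise were called in some of the groups in which Havcr1 was. Of 19 tested, 9 were higher at day 14 and 11 at day 28 of CsA 25 mg/kg (4.73% and 10.5% of all genes), among them the stress-induced transcription factor Atf3 (2.19 and 2.26) and Myc (1.53 and 1.98). At day 7 of that dose there were 0 higher and 1 lower (2.19% and 1.82% of all genes). The median of the 19 was 0.52 at day 14 and 0.81 at day 28, against -0.01 and 0.01 over all genes. At FK506 6 mg/kg 1 was higher at day 7, Myc by 0.93 (SE 0.25, adjusted p = 0.0206, limma), then 5 at day 14 and 10 at day 28 (median 0.55), where 1.77%, 1.24% and 8.63% of all genes were called higher. Without replicate 3 of FK506 6 mg/kg at day 28, the rat with the highest Havcr1, 7 were higher. At FK506 0.6 mg/kg 0 were called at day 14, when Havcr1 was (0.375% of all genes called higher), and 4 were higher at day 28 (2.57% of all genes). The surface receptor Cd44 and the cytokine receptor Tnfrsf12a rose by 1.20 and 1.62 at day 28 of CsA 25 mg/kg.

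Some genes of the healthy proximal tubule were lower at day 28. Of 18 tested, 7 were lower at day 28 of CsA 25 mg/kg (median -0.18) and 3 at day 28 of FK506 6 mg/kg (median -0.09), where 10.6% and 7.35% of all genes were called lower. The brush border peptidase Anpep fell by 1.07 and 0.86, and the amino acid transporter Slc7a13 fell by 0.70 and 0.44. The transcription factor Hnf4a was at -2.31 with CsA, but at -0.27 without the array with zeros, when 7 members were still lower.

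Genes of the distal nephron were already lower where Havcr1 was not yet called. At day 7 of CsA 25 mg/kg the calcium-binding protein Calb1 fell by 2.33, the thiazide-sensitive cotransporter Slc12a3 fell by 1.96 and the growth factor Egf fell by 0.48, 3 of 11 tested, with Havcr1 at 0.71 and not called. The median of the 11 was -0.14, against -0.01 over all genes, of which 1.82% were called lower. At day 7 of FK506 0.6 mg/kg the same 3 were lower, at -2.07 for Calb1, -1.34 for Slc12a3 and -0.48 for Egf, with Havcr1 at -0.16 (1.03% of genes called lower). At day 7 of FK506 6 mg/kg 4 of 11 were lower (1.40% of all genes), Calb1 fell by 2.07, and Havcr1 was higher. The lower calls numbered 4 of 11 at day 28 of CsA 25, FK506 6 and FK506 0.6 mg/kg, where Calb1 fell by 3.39, 3.05 and 3.52. These comparisons called 10.6%, 7.35% and 1.77% of all genes lower, in the same order. In the day 1 groups of CsA 25 and FK506 6 mg/kg Calb1 was at -0.74 and -0.89 and was not called.

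Phagocyte genes moved with Havcr1 in some groups and not in others. Summed over 10 macrophage markers, the intensity at day 7 of CsA 25 mg/kg ran from 9683 to 11280, against 5853 to 8689 in vehicle rats, and 4 of 8 tested genes were higher (Fcer1g, an Fc receptor chain, by 1.47; 2.19% of all genes), while Havcr1 was not called. At day 14 of CsA 25 mg/kg the sums were 10996 to 13669, with 5 of 8 higher (4.73% of all genes). At day 7 of FK506 6 mg/kg they were 6467 to 7280, within the vehicle range. There 0 of 8 were called (1.77% of all genes called higher), although Havcr1 was higher. At day 14 the sums were 5956 to 8215 at FK506 6 mg/kg and 5735 to 6911 at FK506 0.6 mg/kg, against 6697 to 7853 in vehicle rats. Again 0 of 8 were called at either dose, where 1.24% and 0.375% of all genes were called higher. At day 28, 8 of 8 were higher with CsA 25 mg/kg and 5 of 8 with FK506 6 mg/kg (medians 0.88 and 0.60), where 10.5% and 8.63% of all genes were called higher. The part of these cells in the level of Havcr1 was not tested.

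Of 21 tested genes for phosphatidylserine recognition and engulfment, 7 were higher and 2 lower at day 14 of CsA 25 mg/kg, where 4.73% and 3.16% of all genes were called higher and lower. At day 28 of that dose 8 were higher and 1 lower (10.5% and 10.6% of all genes). At FK506 6 mg/kg 0 were called at days 7 and 14, where 1.77% and 1.24% of all genes were called higher. At day 28 of that dose 9 were higher and 1 lower (8.63% and 7.35% of all genes). Their medians at day 28 were 0.18 with CsA and 0.22 with FK506. The complement chains C1qa, C1qb and C1qc, which macrophages also make, were among the higher ones (1.06, 1.07 and 1.01 at day 28 of CsA 25 mg/kg). The integrin Itgav was at -1.17 there, and at 0.35 without the array with zeros. Of 5 tested genes of ectodomain shedding, 1 was higher at day 28 of CsA 25 mg/kg (the protease inhibitor Timp3, by 0.33) and 1 at day 28 of FK506 6 mg/kg (Rhbdf1, a partner of the protease Adam17, by 0.34). These comparisons called 10.5% and 8.63% of all genes higher. The proteases Adam10 and Adam17 themselves were not called in either. At day 28 the medians of the 5 were 0.10 with CsA 25 mg/kg and -0.02 with FK506 6 mg/kg.

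Within groups, 5 of the 10 urinary marker genes followed Havcr1 positively by the test (Clu, Lcn2, Spp1, Timp1 and Vim), where 0.985% of all genes did, and their list had a median r of 0.27. Without the 2 farthest rats 4 of them stayed called, all but Vim. Of 19 injured tubule genes 5 did (Anxa2, Cd44, Myc, Icam1 and Tnfrsf12a), with a median of 0.26, and without the 2 farthest rats only Anxa2 did. Of 21 engulfment genes 3 did (the receptor Axl and the annexins Anxa1 and Anxa5, r = 0.34, 0.44 and 0.38; median of the list 0.11). Of 11 distal nephron genes Egf alone was called, negatively (r = -0.39), where 0.685% of all genes were. Neither these 3 nor Egf stayed called without the 2 farthest rats. None of 8 macrophage genes did (median 0.21), and none of 18 proximal tubule genes was called in either direction (median -0.11), against a median of 0.00 over all genes.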

How the data were processed

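Per the labels, kidney RNA was labelled with biotin, hybridised to Affymetrix Rat 230 2.0 arrays and read with the GeneChip Operating Software. The deposited values are linear intensity values per probe set, and how the authors summarized probes or scaled arrays is not given in the sources used here. Trimmed array means ran from 233 to 250.1, and array medians from 52.0 to 86.1. The number of arrays limits the precision.

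An offset of 16 was added, log2 taken and the 120 arrays quantile normalized. The platform annotation gave 1 gene for 20826 of 31099 probe sets, several for 436, and none for 9780; 57 were controls. The brightest probe set of 14217 genes was kept and the dimmest 25% of genes left out, which left 10663. limma 3.58.1 in R 4.3.3 fitted 28 group means (92 residual degrees of freedom) with Benjamini-Hochberg adjustment. Figures were drawn with matplotlib 3.10.9 in Python 3.11.15. On data simulated for CsA 25 mg/kg day 28 (10663 genes), 73.1%, 86.6% and 100% of changes of 0.5, 1 and 2 were recovered, with 11 false calls. A rat is 1 array, and replicates are numbered in accession order; p-values measure the spread between rats.

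Havcr1 and the gene lists were chosen with earlier results of these data known. Named genes were the 12 highest and 6 lowest in r within groups, ranked by the value nearer 0 with and without the array with zeros, the 8 most alike over group means, and up to 4 members per list with the largest change at CsA 25 mg/kg day 28. Of the TIM family list, 0 of 3 members were in the annotated table. Alternatives changed the normalization, offset, filter, probe sets, moderation, arrays fitted and covariates, and omitted 1 rat at a time (for groups of 6 rats, a choice made after seeing the data).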

Additional observations from a re-analysis of the deposited data

Results flagged for a closer look

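Among the 27 groups of 4 or more rats, 3 held a rat whose Havcr1 level lay far from the rest of its group by Dixon's test, and chance flags about 1 in 20 groups. In FK506 0.6 mg/kg at day 28, replicate 5 had a level of 10.81 (intensity 1816.7), against 8.38 to 9.15 in the other 5 rats. In Rapa 10 mg/kg at day 1, replicate 3 had a level of 7.00 (intensity 107.2), against 5.74 to 5.87 in the other 3 rats. In Rapa 1 mg/kg at day 7, replicate 1 had a level of 5.47 (intensity 26.4), against 6.16 to 6.20 in the other 3 rats.

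The difference of Havcr1 from vehicle changed between days by the test of the change itself (limma, adjusted over 10663 genes) in 4 cases. With CsA 25 mg/kg it grew by 3.43 between days 7 and 14 (adjusted p = 0.00917) and by 5.29 between days 1 and 28 (adjusted p = 9.16e-07). With FK506 6 mg/kg it grew by 3.67 between days 1 and 28 (adjusted p = 0.00148), and with FK506 0.6 mg/kg by 3.31 between the same days (adjusted p = 0.0199).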

How the results depend on the processing

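Of 65 comparisons of Havcr1, all 65 kept their direction where called and their side of the threshold without quantile normalization, with an intensity trend in the moderation, without the array with zeros and without the arrays with high Alb, and no called comparison took the other sign in any setting or without any 1 rat. Of the 45 comparisons not called, 9 took the other sign in 1 or more settings and 18 without 1 rat, none of them with a call; among them were FK506 6 minus 0.6 mg/kg (0.52 and -0.08) and Rapa 10 minus 1 mg/kg (-0.39 and 0.10) at day 28 with the hybridization controls as covariate, and CsA 2.5 mg/kg minus vehicle at day 14 (-0.20 and 0.07) without the arrays with high Alb. The comparison of FK506 6 with 0.6 mg/kg at day 7 lost its call with an offset of 1 (3.00, adjusted p = 0.115), with all probe sets kept apart (2.73, 0.0577), with the compared groups alone (2.73, 0.0745) and without any 1 of 6 rats (2.48 to 2.99 over all 8 rats). The comparison of CsA 25 with 2.5 mg/kg at day 7 lost it with an offset of 64 (1.17, 0.133), no filter (1.87, 0.0546), all probe sets (1.87, 0.0512), the Gapdh ratio (1.67, 0.161) or the hybridization controls (1.70, 0.0694) as covariate, the compared groups alone (1.87, 0.175) and without any 1 of 5 rats (1.33 to 2.11 over all 8). With the compared groups alone, FK506 0.6 mg/kg against vehicle at day 14 (2.87, 0.0692) and the change of CsA 25 mg/kg between days 7 and 14 (3.43, 0.0518) were not called; with the days alone, CsA 25 against FK506 6 mg/kg at day 7 (-1.86, 0.0261), FK506 6 mg/kg between days 1 and 7 (2.60, 0.0205) and FK506 0.6 mg/kg between days 7 and 14 (3.02, 0.0149) were called, and FK506 0.6 mg/kg between days 1 and 28 was not (3.31, 0.105). The exact permutation test gave p = 0.0286 for CsA 2.5 mg/kg against vehicle at day 7 (-1.15). Leaving out 1 rat gave -2.40 to -1.61 for CsA 25 against FK506 6 mg/kg at day 7, 0.63 to 1.60 for Rapa 1 mg/kg at day 28 (called without any 1 of 4 of the 11 rats) and 2.98 to 3.52 for FK506 0.6 mg/kg between days 1 and 28. The cause of these losses and gains was not tested.

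The counts of genes that follow Havcr1 within groups (105 positive, 73 negative) were lower in several settings: 39 negative with an offset of 1, 19 positive and 8 negative in the 24 rats of CsA 25 and FK506 6 mg/kg at days 7 to 28, 34 and 24 in the other rats, and 16 and 0 without the 2 farthest rats, an alternative chosen after seeing the data. The smaller number of arrays is part of the first 2 splits. Without the array with zeros, also chosen after seeing the data for the lists, 0 genes of phosphatidylserine recognition and engulfment were lower at day 28 of CsA 25 mg/kg, against 1 with it. No paired analysis was possible because the labels give no replicate numbers that tie rats across groups. Low intensities limit Havcr1 in vehicle rats, where it is near the array median and a fall is hard to see.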
